A study of Mus musculus with 78 samples.

Results

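Steady-state RNA after 72 h without ZFP143 was described here for mouse embryonic stem cells (mESCs), the pluripotent cells of the early embryo kept in culture. A gene was included when its count exceeded 10 in 2 or more of the 4 libraries compared, which were 2 libraries of cells given the degrader dTAG-V1 for 72 h and 2 of cells given the solvent DMSO. This rule kept 14326 of the 55401 genes in the count table. The cells were the E14TG2a line, grown with LIF and the 2 inhibitors of 2i medium in serum-free culture. Every group, the controls included, carried the same change on both alleles of Zfp143, a C-terminal fusion to FKBP12F36V with an HA tag and a separately released GFP, made as clones of single sorted cells. dTAG-V1 was given at 500 nM and recruits the von Hippel-Lindau ubiquitin ligase to the FKBP tag. The DMSO libraries carry no time label, and libraries after 24 and 48 h of dTAG-V1, 2 each, belonged to the same series of samples. No RNA-seq library came from untagged cells given dTAG-V1, so ZFP143 loss, the compound and time in culture cannot be told apart in these libraries. Each group came from 2 biological replicates per the study's methods.

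ZFP143 is a zinc finger transcription factor that binds close to the start sites of genes needed in most cells, and its human counterpart is ZNF143. It recognises a long composite element whose core holds the letters ACTACA followed after a few bases by CCCA, and it works with the HCFC1 and THAP11 proteins. Many of the genes it binds encode proteins of mitochondria, organelles whose proteins come in part from a small genome of their own (mtDNA) and in larger part from the nucleus. Loss of mitochondrial function is known to trigger the integrated stress response, in which translation slows and the factors ATF4, ATF5 and CHOP are made. RNA measured after 72 h holds the effects of the first losses together with all that followed.

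The sequences below show the DNA at ZFP143 binding peaks of the genes whose RNA fell most, because they are the part of the genome where the factor sat before it was removed. The 12 genes with the greatest decrease were taken among genes with a mean of at least 100 counts, and 10 of them had a ZFP143 peak at their promoter, meaning a peak that overlapped the region from 2000 bases before to 1000 bases after a transcript start with its centre within 2000 bases of that start. Each line gives the 101 bases around the peak summit in GRCm38.p6, the build that mm10 names, read from the reference on the strand of the gene. Capitals mark ACTACA or its reverse complement TGTAGT, and CCCANNATG or its reverse complement, where N is any base.
Acadvl, very long-chain acyl-CoA dehydrogenase, chr11:70015391-70015491, minus strand: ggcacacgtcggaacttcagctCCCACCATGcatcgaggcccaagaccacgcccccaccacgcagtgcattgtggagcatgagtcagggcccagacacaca
Mmachc, cobalamin processing, chr4:116708374-116708474, minus strand: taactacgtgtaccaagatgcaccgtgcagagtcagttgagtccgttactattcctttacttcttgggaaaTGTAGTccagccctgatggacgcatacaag
Zfp111, zinc finger protein, chr7:24208103-24208203, minus strand: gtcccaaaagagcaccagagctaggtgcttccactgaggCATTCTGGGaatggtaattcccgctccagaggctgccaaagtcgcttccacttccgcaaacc
Mrps25, small subunit of the mitochondrial ribosome, chr6:92184010-92184110, minus strand: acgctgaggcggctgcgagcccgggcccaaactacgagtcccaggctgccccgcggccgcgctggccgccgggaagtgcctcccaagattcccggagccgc
Mpi, mannose phosphate isomerase, chr9:57552724-57552824, minus strand: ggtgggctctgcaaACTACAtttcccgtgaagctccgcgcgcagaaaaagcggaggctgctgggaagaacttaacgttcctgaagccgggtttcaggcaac
Rnaseh2c, subunit of ribonuclease H2, chr19:5601773-5601873, plus strand: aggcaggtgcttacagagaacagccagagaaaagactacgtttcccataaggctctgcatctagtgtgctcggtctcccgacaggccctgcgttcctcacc
Enox2, plasma membrane oxidase, chrX:49288391-49288491, minus strand: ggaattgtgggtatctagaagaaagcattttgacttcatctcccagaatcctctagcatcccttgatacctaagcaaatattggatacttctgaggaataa
St3gal2, sialyltransferase, chr8:110919654-110919754, plus strand: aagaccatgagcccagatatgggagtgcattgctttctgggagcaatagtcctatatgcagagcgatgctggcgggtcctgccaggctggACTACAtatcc
Lhpp, phosphatase, chr7:132610581-132610681, plus strand: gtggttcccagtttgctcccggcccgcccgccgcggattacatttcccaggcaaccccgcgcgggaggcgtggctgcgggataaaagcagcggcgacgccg
Usp40, deubiquitinase, chr1:88008549-88008649, minus strand: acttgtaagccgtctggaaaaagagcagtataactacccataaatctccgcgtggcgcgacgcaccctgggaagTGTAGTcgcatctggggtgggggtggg
In these 10 windows ACTACA or its reverse complement was found at Mmachc, Mpi, St3gal2 and Usp40, and CCCANNATG or its reverse complement at Acadvl and Zfp111. Neither was found at Mrps25, Rnaseh2c, Enox2 and Lhpp, where near matches with other letters were not counted. The summits lay between 11 bases (Mpi) and 218 bases (St3gal2) upstream of the start used. The enrichment of these peaks over input, a ratio from the peak caller, ran from 21.5-fold at Enox2 to 206-fold at St3gal2. Krt7, a keratin, and Gstm3, a glutathione transferase, completed the 12 and had no promoter peak.

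The 8 libraries of the time course held between 10261851 and 15316700 counts, which were those of 72 h replicate 1 and DMSO replicate 2. Replicates were close, with a standard deviation per library of 0.1 on the log2 scale in DMSO and 0.0825 at 72 h over well-counted genes, and a common biological coefficient of variation of 3.65%. DMSO replicate 1 stood apart in 5 features, CT010467.1, Lars2, Gm23935, Gm15564 and Mir6236, several of which hold ribosomal RNA sequence, and which took 4.07% of its counts against 0.628% to 0.935% in the other 7 libraries. The transcript of Zfp143 was measured at 43.2 and 44.5 CPM, counts scaled to a common library total, in DMSO and at 110 and 104 CPM at 72 h. It rose by a log2 of 1.28 ± 0.06 (n = 2 libraries per group), where ± gives a standard error from the fit of all 8 libraries. The degrader acts on the protein, so this transcript does not check the depletion. Of the 8 markers of embryonic stem cells, all were tested, and their summed level went from 6549 and 6756 CPM in DMSO to 4197 and 4157 CPM at 72 h, with Sox2, Nanog and Dppa5a called lower. In bulk RNA, fewer cells of a type and less RNA per cell cannot be told apart.

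Genes were called changed when edgeR placed the change beyond 1.5-fold with an adjusted p under 0.01. At 72 h, 1864 genes were lower, 13% of those tested, and 2013 were higher, 14.1%. The count filter bears on both numbers, because 586 of the higher genes exceeded 10 counts in both 72 h libraries and neither DMSO library, and 175 of the lower genes in both DMSO libraries and neither 72 h library. Among the 12392 genes above 10 counts in all 4 libraries, 1615 were lower and 1273 higher. The median level of a lower gene was 44.9 CPM in DMSO and 16 CPM at 72 h, whereas a higher gene went from 2.13 to 9.49 CPM. The median size of a change was 1.29 on the log2 scale for lower genes and 1.82 for higher genes. Decreases beyond 16-fold, a log2 of 4, were found for 87 genes and increases of that size for 184. These levels and sizes were in part fixed by the filter, which lets in genes near 0 in 1 group, and more of them through the 72 h libraries. The median log2 change of all genes was -0.0039. This balance depended on scaling. With library size alone the median moved to 0.242, with 1190 genes lower and 2961 higher, so that lower genes were 28.7% of the calls in place of 48.1%. All changes are relative to the RNA of the same library, because no external RNA was available to measure the total.

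**Figure D1:**
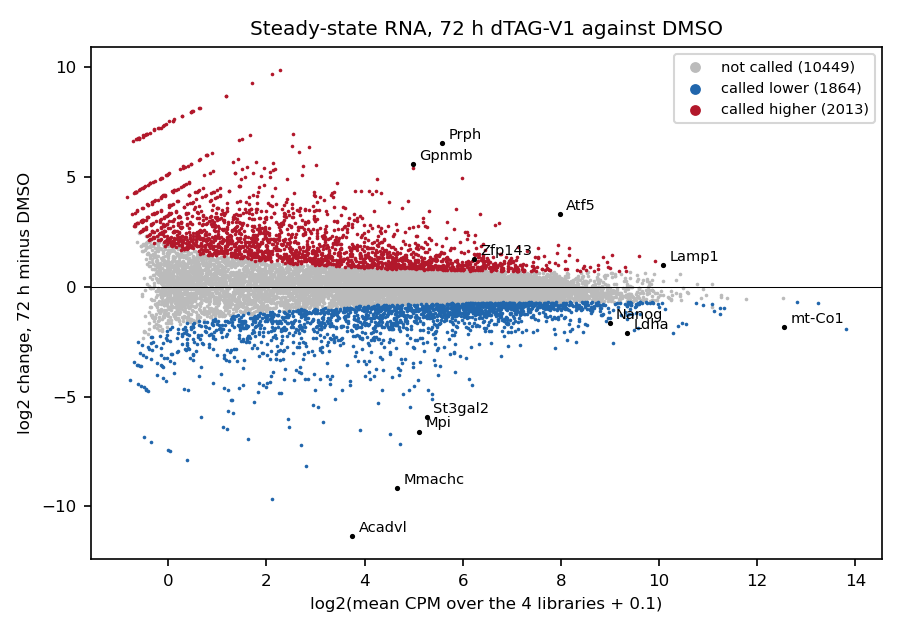
Log2 change of each of the 14326 genes at 72 h against DMSO (vertical axis) plotted against the log2 of its mean CPM over the 4 libraries plus 0.1 (horizontal axis), with the 1864 lower and 2013 higher genes in colour. The median level in DMSO was 2.13 CPM for higher genes, 586 of which passed the count filter through their 72 h libraries alone, and 44.9 CPM for lower genes, and the fitted values of genes at 0 in a group depend on the prior count.

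Acadvl, the enzyme that begins the oxidation of very long-chain fatty acids in mitochondria, was not detected at this depth. It stood at 26.7 and 26.6 CPM in DMSO and had 0 counts in both libraries at 72 h, so it was at least 229-fold lower against a floor of 3 counts over the group. Mmachc, which prepares vitamin B12 for use, stood at 47.0 and 53.6 CPM in DMSO and kept 2 counts in 1 library and 0 in the other at 72 h. The ratio of its counts was 655, with a 95% counting interval from 181 to 5415. Zfp111, a zinc finger gene, went from 51.5 and 52.7 CPM to 0.182 and 0.472 CPM, and Mrps25 from 43.0 and 47.2 to 0.274 and 0.539 CPM. Their log2 changes were -7.18 ± 0.20 and -6.69 ± 0.20. The gap between DMSO and 72 h values was wider than that between replicates, but these genes were chosen for a large decrease without overlap.

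Mpi makes the mannose 6-phosphate that glycoproteins are built with. It stood at 69.9 and 67.0 CPM in DMSO and at 0.730 and 0.674 CPM at 72 h, a log2 change of -6.59 ± 0.17. St3gal2, which caps glycans with sialic acid, fell from 80.3 and 71.5 CPM to 1.28 and 1.21 CPM. Lhpp fell from 64.0 and 55.0 CPM to 1.55 and 1.15 CPM, and Usp40 from 19.3 and 21.5 CPM to 0.639 and 0.539 CPM. The log2 changes of the remaining genes of this group were -5.49 for Krt7 and -5.31 for Gstm3, -6.52 for Rnaseh2c and -6.16 for Enox2. Rnaseh2c was at 31.1 and 28.0 CPM in DMSO and 0.547 and 0.135 CPM at 72 h, and Enox2 at 15.8 and 18.9 CPM and then 0.365 and 0.135 CPM. Without 72 h replicate 1 or 2 their changes were -7.67 or -5.72 and -6.91 or -5.54, and without 72 h replicate 2 those of Zfp111 and Mrps25 were -8.08 and -7.31. In each of the 12, both 72 h libraries lay below both DMSO libraries, as the choice of these genes required. In all, 175 genes had at most 10 counts in both 72 h libraries and were called lower, and 52 of them had a promoter peak.

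**Figure D2:**
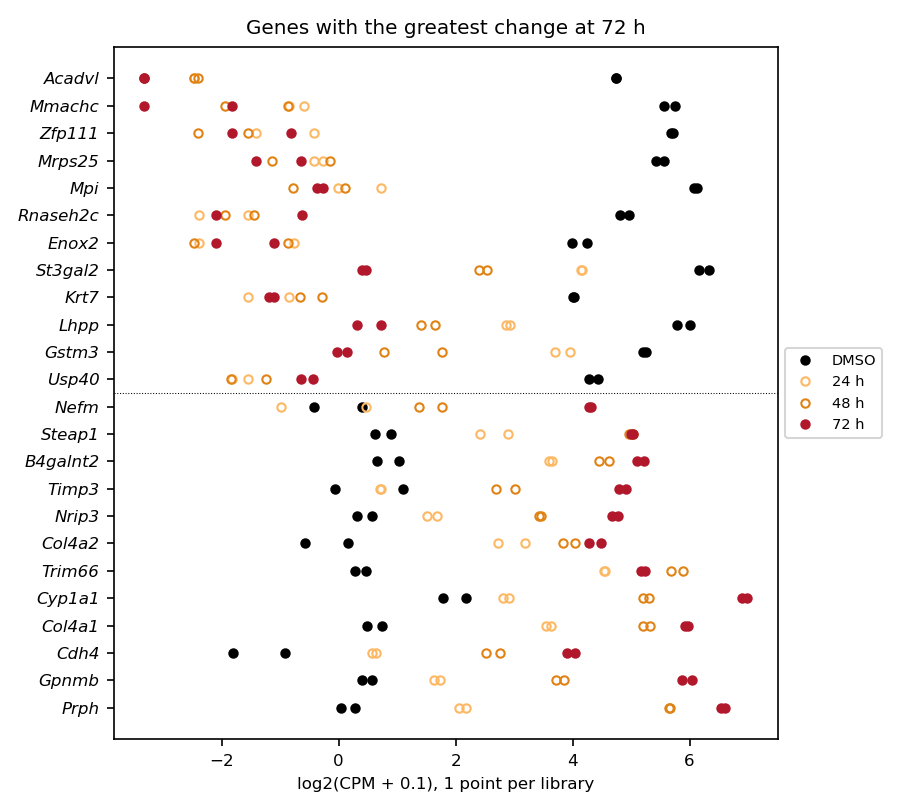
Level in each library, as log2 of CPM plus 0.1, of the 12 genes that fell most and the 12 that rose most, with DMSO and 72 h libraries in 2 colours. Replicates lie close for Mpi (69.9 and 67.0 CPM in DMSO, 0.730 and 0.674 CPM at 72 h) and Prph (1.11 and 0.932 CPM in DMSO, 92.7 and 96.9 CPM at 72 h), and further apart where few counts were left, as for Zfp111 at 72 h (0.182 and 0.472 CPM).

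Genes with a ZFP143 peak at the promoter made up a larger share of the lower genes than of the higher genes. Of the 13427 tested genes with an annotated transcript start, 2134 had a promoter peak, 15.9%. The share was 33.6% (608 of 1808) among lower genes, 14.6% (1414 of 9660) among genes not called and 5.72% (112 of 1959) among higher genes. It rose with the size of the decrease, to 45% of genes lower by more than 2 on the log2 scale, 56.5% beyond 3 and 67.1% beyond 4. Among higher genes it went the other way, from 3.28% beyond 2 to 0.568% beyond 4, which was 1 gene of 176. Genes near 0 in 1 group weigh on these shares, as 533 of the 885 genes higher by more than 2 had at most 10 counts in both DMSO libraries, and 162 of the 420 genes lower by more than 2 had at most 10 in both 72 h libraries. Seen from the peaks, 28.5% of the genes with a promoter peak were lower and 5.25% higher, against 10.6% and 16.4% of genes without. Most lower genes thus had no promoter peak, and most genes with a promoter peak were not called.

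Stronger peaks went with more decreases. The genes with a peak were sorted into 5 equal bins by its fold enrichment, from 4.35 to 15.3 in the weakest to 67.5 to 345 in the strongest. Lower genes made up 19.4%, 26.9%, 27.9%, 30.2% and 37.9% of the bins in that order, and the median log2 change at 72 h went from -0.19 in the weakest to -0.52 in the strongest, against 0.07 for genes without a peak. The median enrichment was 42.8-fold at lower genes, 35.2-fold at genes not called and 27.4-fold at higher genes. The summit lay nearer to the start of lower genes, with a median distance of 61 bases, than to that of genes not called, with 82 bases, or of higher genes, with 143 bases. These are shares and medians of one peak list without replicates, so they carry no error.

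**Figure D3:**
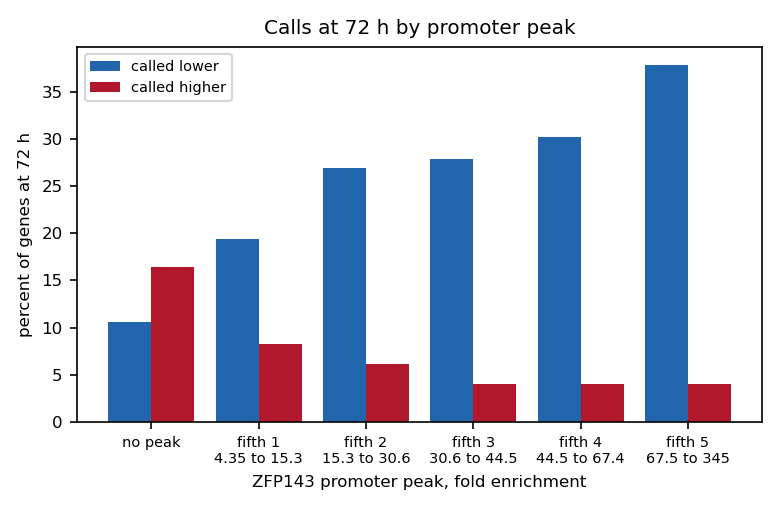
Percent of genes called lower and percent called higher at 72 h (vertical axis, from 0) for genes without a ZFP143 promoter peak and for 5 bins of genes by the fold enrichment of their peak. Lower genes rise from 10.6% without a peak to 37.9% in the strongest bin, while higher genes decline from 16.4% to 3.98%.

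ACTACA, on either strand, was found more often at the peaks of lower genes. Peaks were counted once per gene, so a peak shared by neighbouring genes counts for each of them. In the 101 bases around the summit it was present at the promoter peak of 47.5% of lower genes with a peak (289 of 608). The shares were 38.0% for genes not called, 33.9% for higher genes and 33.5% of all 3189 peaks. It was present at 62.4% of the peaks of genes lower by more than 2 on the log2 scale and at 70.8% of those beyond 3 (68 of 96). CCCANNATG was found at 20.9%, 19.9% and 13.4% of the peaks of lower, not called and higher genes, and at 21.4% of all peaks. In the RefSeq promoter windows of the reference, from 250 bases before to 50 after the start, which matched 10398 of the tested genes, ACTACA was found at 21.4% of lower genes, 11.5% of genes not called and 6.63% of higher genes, against 10.3% of all 32851 windows. CCCANNATG was found there at 9.54%, 5.83% and 4.63%, against 5.01% of all windows. Both motifs can stand side by side in the longer element, so their shares are not independent.

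A single peak often lay between the starts of neighbouring genes that are read in opposite directions, and 232 such pairs had both genes tested. Both genes were lower in 18 pairs, among them Mmachc with Ccdc163 (-4.24) and Uqcr10 (-4.21), a subunit of respiratory complex III, with Zmat5 (-3.88). In 58 pairs 1 gene was lower and the other not called, and in 129 neither was called. In 4 pairs the genes went in opposite directions, as with Peg10, which fell by 0.90 with a call that was lost without DMSO replicate 2 or 72 h replicate 2, and Sgce, which rose by 3.36 across a start-to-start distance of 99 bases. Both are imprinted genes, expressed from the paternal copy. Both genes were higher in 1 pair. Of all genes with a promoter peak, 28.5% were lower and 5.25% higher, and whether paired genes changed together was not tested. The sources used here do not say which strand the counts were taken from, and where the genes of a pair overlap, reads of the 2 cannot be told apart without strand.

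The counts of the gene lists that follow are to be read beside all tested genes, of which 13% were lower and 14.1% higher. Some higher members of these lists were let in by their 72 h libraries alone. All 9 genes of mtDNA that were tested had a negative log2 change, and 7 were called lower, with a median of -1.24. The share of counts from mitochondrial DNA was 1.72% and 1.92% in DMSO and 0.760% and 0.768% at 72 h. The transcript of cytochrome oxidase subunit 1, mt-Co1, was measured at 8974 and 9722 CPM in DMSO and at 2576 and 2710 CPM at 72 h, a log2 change of -1.82 ± 0.05. mt-Cytb of complex III went from 2136 and 2429 CPM to 711 and 683 CPM, and mt-Nd1 of complex I from 3124 and 3634 to 1451 and 1425 CPM. mt-Nd6, the one coded on the other strand, was at 15.2 and 33.9 CPM in DMSO and 6.39 and 9.44 CPM at 72 h, and its call was lost without DMSO replicate 2 (-0.88, adjusted p = 0.0743). If the counts were made without strand, its reads cannot be told apart from those of the opposite strand. The libraries were made from polyadenylated RNA, which most mtDNA messages are.

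The nuclear genes of the respiratory chain were split. Of the 43 tested genes of complexes II to V, 19 were lower and 0 higher with a median of -0.66, whereas of 37 genes of complex I, 2 were lower and 0 higher with a median of -0.26. With library size alone the medians were -0.42 and -0.01, with 13 and 1 genes lower. Uqcr10 stood at 129 and 134 CPM in DMSO and 6.84 and 7.28 CPM at 72 h, and Cox7c, a small subunit of complex IV, at 80.6 and 75.3 CPM and then 7.02 and 8.09 CPM. Atp5j2 of the ATP synthase fell by 2.04. Each of these 3 had a promoter peak, as did 10 of the 19 lower genes of complexes II to V. Cox7a1, a form of the complex IV subunit found in heart and muscle, had no promoter peak and fell by 2.86. Atp5b, the most abundant gene of the list, was at 2806 and 2795 CPM in DMSO and 2152 and 2113 CPM at 72 h and was not called. In complex I the lower genes were Ndufa3 (-1.54) and Ndufv2 (-0.74), the latter not called without DMSO replicate 1 or 72 h replicate 1.

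Of 79 genes of the mitochondrial ribosome, 12 were lower and 0 higher, 15.2% against 13% of all genes, and the median of -0.21 turned to 0.04 with library size alone, where 7 were lower. The lower members held single large decreases, Mrps25 first, then Mrpl24 (-2.96), Mrpl34 (-2.41) and Mrpl54 (-2.26), and 10 of the 12 had a promoter peak. Among 38 genes of protein import and quality control in mitochondria, 11 were lower and 0 higher, with a median of -0.30. With library size alone 6 were lower and 1 higher, and the median was -0.05. Timm13, a chaperone of the space between the membranes, fell from 68.3 and 61.9 CPM to 7.02 and 9.71 CPM. Clpb, which dissolves protein aggregates, fell from 113 and 108 CPM to 13.7 and 11.5 CPM. Hspa9, the main chaperone of the matrix, was at 1097 and 1133 CPM in DMSO and 1633 and 1661 CPM at 72 h and was not called.

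Of 26 genes for the transcription and copying of mtDNA, 4 were lower, 15.4% against 13% of all genes, with a median of -0.12 that turned to 0.13 with library size alone, where 2 were lower and 3 higher. They were Tfb1m (-1.77), which modifies the small ribosomal RNA of mitochondria, Fastkd1 (-1.28), an RNA-binding protein, the elongation factor Tefm (-1.03, not called without DMSO replicate 2) and Tfam (-0.73), which packages mtDNA and opens its promoters. Tfam stood at 103 and 109 CPM in DMSO and 63.9 and 64.0 CPM at 72 h, and its adjusted p of 0.00662 exceeded 0.01 when any 1 of the 4 libraries was left out. A list of 9 genes had been chosen on these and related samples, so that its direction is no independent evidence, and 7 of them were lower (median -1.07), or 4 with library size alone (median -0.82). Mtrf1, a release factor of mitochondrial translation, fell by 3.03, Coa3, needed to assemble complex IV, by 1.70, and Dnm1l, the fission GTPase, by 1.07. Ndufab1, the acyl carrier protein, had a log2 change of -0.45 and Tufm, an elongation factor, -0.72, and neither was called. The labels name 7 genes as viewpoints of chromosome contacts. Zfp111, Rbm41 (-4.83), Cpox of heme synthesis (-3.46), Zfp108 (-3.39) and Prmt6 (-2.10) were lower, and Cldn1 was not among the genes tested. Cldnd1, a gene of similar name, fell by 1.90, and whether that label means it is not known here. Sik1 was at 133 and 128 CPM in DMSO and 151 and 154 CPM at 72 h. Cpox had no promoter peak of its own.

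**Figure D4:**
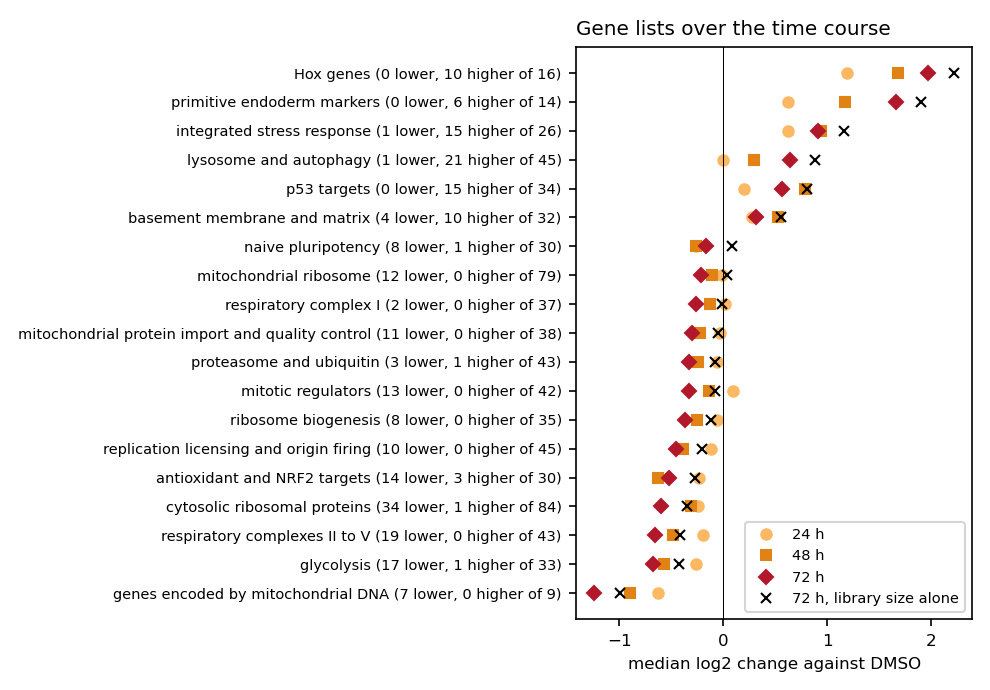
Median log2 change against DMSO of 19 gene lists after 24, 48 and 72 h of depletion (filled symbols) and at 72 h with library size as the only scaling (crosses), with the number of members called lower and higher at 72 h beside each name. The lists run from the genes of mitochondrial DNA (median -1.24 at 72 h) to the Hox genes (1.97). The time points share their DMSO libraries.

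Glycolysis, the breakdown of glucose to pyruvate and lactate, was lower in many of its steps. Of 33 genes tested, 17 were lower and 1 higher, 51.5% and 3.03% against 13% and 14.1% of all genes, with a median of -0.68. A ZFP143 promoter peak was found at 0 of the 33, against 15.9% of all genes with an annotated start. Ldha, which makes lactate, was at 1052 and 1068 CPM in DMSO and 255 and 241 CPM at 72 h. Aldoa, which splits the 6-carbon sugar, went from 2079 and 1987 CPM to 481 and 473 CPM. Tpi1 fell by 2.42 and the lactate exporter Slc16a3 by 4.51. Slc2a3, a glucose transporter, was at 1450 and 1471 CPM in DMSO and 1401 and 1438 CPM at 72 h. Pfkfb3 was the 1 higher gene (0.84, adjusted p = 0.00478), and it was not called when any 1 of the 4 libraries was left out.

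Genes of the response to low oxygen were mixed, with 5 lower and 2 higher of 18 and a median of -0.12 that turned to 0.13 with library size alone, with 4 lower and 4 higher. The mitophagy receptor Bnip3 fell from 35.7 and 35.5 CPM to 3.56 and 4.18 CPM, whereas Vegfa, the endothelial growth factor, rose by 0.97 and Ddit4, an inhibitor of mTORC1, by 1.09. Of 19 genes of the tricarboxylic acid cycle, 2 were lower, 10.5% against 13% of all genes (median -0.33), which were Fh1 (-1.81) and Mdh1 (-1.56), and both had a promoter peak. Of 27 genes of fatty acid oxidation 6 were lower, Acadvl among them, and 3 were higher (median 0.01), with Acadl, the long-chain counterpart of Acadvl, at 17.8 and 20.1 CPM in DMSO and 57.5 and 58.0 CPM at 72 h. Among 30 antioxidant genes, many of them targets of NRF2, 14 were lower and 3 higher, with a median of -0.52. Nqo1 fell by 1.70, the glutathione reductase Gsr by 1.79, and Taldo1 and Tkt of the pentose phosphate pathway by 1.56 and 1.55. The 3 higher genes were Slc7a11 (2.39), the cystine importer, Hmox1 (1.90), which breaks down heme, and Gsto1 (1.76).

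Part of the genes for ribosomal proteins, ribosome biogenesis, replication and mitosis were called lower. Of 84 cytosolic ribosomal protein genes, 34 were lower and 1 higher with a median of -0.60, but with library size alone 5 were lower and the median was -0.35. Rpl37a fell from 408 and 374 CPM to 147 and 153 CPM. Rps29 was at 208 and 135 CPM in DMSO and 59.3 and 57.3 CPM at 72 h, and Rpl4, the most abundant of the list, at 4064 and 4220 CPM and then 2827 and 2810 CPM without a call. The 1 higher gene was Rpl39l (1.27), a form best known from the testis. Ribosomal protein genes have many near-identical pseudogene copies, so their counts are uncertain. The translation factors Eef1a1 and Pabpc1 fell by 0.73 and 1.09 and had some of the largest changes in CPM of all genes, Eef1a1 from 11865 and 12169 to 7154 and 7288 CPM.

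Of 35 genes of ribosome biogenesis, 8 were lower and 0 higher (median -0.37), and with library size alone 0 were lower and 1 higher. Of 45 genes of DNA replication, 10 were lower, 22.2% against 13% of all genes, and 0 higher (median -0.45). Tk1, the thymidine kinase of S phase, fell from 85.3 and 85.5 CPM to 12.04 and 13.7 CPM, and Rrm2, Lig1 and Ccne1 fell by 1.54, 1.49 and 1.35. Of 42 mitotic regulators, 13 (31%) were lower and 0 higher (median -0.33), or 5 lower with library size alone (median -0.08). Kif20a (-1.24), Plk1 (-1.18), Birc5 (-1.14) and Ccna2 (-1.06) came first. A promoter peak was found at 6 of the 13, these 4 among them. Of 28 chaperones of the cytosol and endoplasmic reticulum, 6 were lower and 2 higher (median -0.31), and with library size alone 3 and 4 (median -0.07). Hsph1 fell by 1.30, the chaperonin subunits Tcp1 and Cct7 by 1.25 and 0.89, and Hsp90aa1 by 0.98. Hsp90ab1 had a log2 change of -0.68 (adjusted p = 0.00866), and its call was lost when either 72 h library or DMSO replicate 2 was left out.

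Of 26 tested genes of the integrated stress response, 15 rose, 57.7% against 14.1% of all genes, 1 fell and 10 were not called, with a median of 0.91. Atf5, a transcription factor of the mitochondrial stress response, was at 49.3 and 42.5 CPM in DMSO and 449 and 465 CPM at 72 h, a log2 change of 3.32 ± 0.06. Ddit3, the gene of CHOP, rose from 11.6 and 12.04 CPM to 95.04 and 87.1 CPM, and it had a promoter peak. Cebpb rose by 3.64 and Atf3 by 2.69. Asns, the asparagine synthetase that ATF4 is known to activate, stood at 1021 and 1003 CPM in DMSO and at 864 and 895 CPM at 72 h and was not called. Among 22 genes of serine, glycine and one-carbon metabolism, a group with many ATF4 targets, 8 were lower and 2 higher (median -0.49), and with library size alone 4 and 2 (median -0.24). Psat1 of serine synthesis fell by 0.85 and Pycr1 of proline synthesis by 1.22, while Aldh1l2, a mitochondrial folate enzyme, rose by 1.64. Amt of glycine cleavage fell by 2.71 and had a promoter peak.

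Targets of p53, the factor that halts the cell cycle after stress, were higher in 15 of 34 cases and lower in 0, with a median of 0.57. Gadd45a was at 6.93 and 7.74 CPM in DMSO and 64.4 and 66.5 CPM at 72 h. Pmaip1, a pro-apoptotic protein of the BCL2 family, rose from 1.48 and 1.79 CPM to 12.9 and 14.9 CPM, and Ccng1, the most abundant of the list, from 352 and 376 to 647 and 674 CPM. Trp53inp1 rose by 1.15. Fas, a death receptor, had 2 counts over both DMSO libraries, and the ratio of its counts was 24.9 with a 95% interval from 6.57 to 211. Among 32 regulators of cell death, 6 were higher and 4 lower (median 0.06). Hrk (3.61, or 4.75 without DMSO replicate 2) and Pmaip1 rose, whereas Bok (-2.33), Birc5 and Bak1 (-1.02) were among those that fell.

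Of the lists described, that of lysosomal and autophagy genes held the largest number of increases, though not the largest share. Of 45 tested, 21 rose and 1 fell, 46.7% and 2.22% against 14.1% and 13% of all genes, with a median of 0.64. Gpnmb, a membrane glycoprotein that is made when lysosomes are stressed, went from 1.39 and 1.22 CPM in DMSO to 65.6 and 58.7 CPM at 72 h, a log2 change of 5.57 ± 0.15. Sqstm1, the autophagy receptor p62, rose from 261 and 253 CPM to 674 and 656 CPM, and Lamp1, a major protein of the lysosomal membrane, from 707 and 754 CPM to 1487 and 1409 CPM. Rragd and Flcn, which tie the lysosome to mTORC1, rose by 1.64 and 1.37. Gabarapl2 was the 1 lower gene (-0.91), a call lost without DMSO replicate 2 (-0.81, adjusted p = 0.0105) and with library size alone (-0.67, adjusted p = 0.146).

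The 12 genes with the greatest increase were taken among genes with a mean of at least 100 counts, as for the decreases, and included Gpnmb. Prph, an intermediate filament of peripheral neurons, was at 1.11 and 0.932 CPM in DMSO and 92.7 and 96.9 CPM at 72 h. It had the greatest increase of the genes with enough counts, 6.54 ± 0.13 on the log2 scale. Cyp1a1, the enzyme known as a target of the aryl hydrocarbon receptor, went from 3.33 and 4.44 CPM to 119 and 127 CPM. Col4a1 and Col4a2, the paired chains of collagen IV whose genes share a promoter, rose by 5.39 and 4.73. The cadherin Cdh4 rose by 5.56, Trim66 by 4.91, Nrip3 by 4.38, the protease inhibitor Timp3 by 4.37, the glycosyltransferase B4galnt2 by 4.36, Steap1 by 4.35 and the neurofilament gene Nefm by 4.33. The increases of Cdh4 and Nefm were 6.35 and 4.92 without DMSO replicate 2, and that of Timp3 was 5.06 without DMSO replicate 1. No gene of these 12 had a promoter peak.

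In total 586 genes had at most 10 counts in both DMSO libraries and were called higher, and 18 of them had a promoter peak. A gene let in by its 72 h libraries alone had to differ, so this number says only how many such genes there were. Cacng5, a calcium channel subunit, had 1 and 3 counts in DMSO and 150 and 220 at 72 h. Cox6a2, the complex IV subunit of muscle, had 0 and 2 counts and then 135 and 157. Ccnd2, a D-type cyclin, had 0 counts in both DMSO libraries and 65 and 99 at 72 h, at least 52.5-fold higher. Its relative Ccnd1 went the other way, from 142 and 139 CPM to 34.8 and 34.9 CPM.

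Among abundant genes, the largest increases in CPM included the imprinted long non-coding RNAs Rian and Meg3. Rian was at 574 and 606 CPM in DMSO and 1299 and 1387 CPM at 72 h, and Meg3 at 465 and 393 CPM and then 1096 and 1150 CPM. Long non-coding genes as a class had 21.8% higher and 7.37% lower of 624, against 14.2% and 13.8% of 12719 protein-coding genes. At most 10 counts in both DMSO libraries were held by 61 of the 136 higher long non-coding genes and by 491 of the 1812 higher protein-coding ones, so these shares depend on the filter. Ghitm, a protein of the inner mitochondrial membrane, rose from 278 and 292 CPM to 770 and 764 CPM. The largest decrease in CPM was that of CT010467.1, a ribosomal RNA feature, which held 40281 CPM in DMSO replicate 1 and 5184 in replicate 2, against 6415 and 5546 CPM at 72 h. Without DMSO replicate 1 its log2 change was 0.23, so the decrease rests on that library.

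Pluripotency genes were divided. Of 30 genes of the naive state, 8 were lower and 1 higher, and the median of -0.17 turned to 0.08 with library size alone. Dppa3, a maternal factor that protects DNA methylation marks, fell from 79.8 and 79.7 CPM to 3.38 and 2.22 CPM. Nanog fell from 764 and 784 CPM to 249 and 246 CPM, Dppa5a by 1.87, Fgf4 by 1.69, Prdm14 by 2.04 and Sox2 by 1.06. Esrrb, Tfcp2l1 and Klf4 had log2 changes of -0.13, -0.17 and 0.10 and were not called, and Pou5f1 was at 1108 and 1149 CPM in DMSO and 751 and 745 CPM at 72 h, also without a call (adjusted p = 0.46). Nr0b1 was the 1 higher gene (1.36). Genes of the formative and primed state were divided, with 5 lower and 3 higher of 20 and a median of -0.19 that turned to 0.05 with library size alone, with 3 lower and 4 higher. Otx2 fell by 1.52 and Sox11 rose by 4.12.

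Markers of other cell types were mostly weak. Of 14 tested markers of primitive endoderm, 6 rose and 0 fell, with a median of 1.66. Of the 6, 3 had at most 10 counts in both DMSO libraries and were let in by their 72 h libraries, and markers under the filter were not tested, so the direction is in part fixed by the filter. Col4a1 and Col4a2 were in that list, and other rising markers were weak, as with Sox17 at 0.185 and 0.143 CPM and then 1.46 and 1.35 CPM. The summed level of 6 defining endoderm markers was 6.37 and 6.73 CPM in DMSO and 15.7 and 15.1 CPM at 72 h. Fibroblast markers summed to 4.06 and 3.72 CPM and then 9.19 and 10.2 CPM, with Col3a1 at 0 counts in all 4 libraries. Of the blood markers, Ptprc and Lyz2 were at 0 counts in all 4 libraries, and Cd68 was at 15.1 and 14.2 CPM in DMSO and 11.9 and 8.16 CPM at 72 h. Cdx2 of trophectoderm was at 0 as well, and the summed trophectoderm markers, led by Tfap2c, went from 171 and 171 CPM to 105 and 104 CPM. Neural markers summed to 219 and 227 CPM and then 141 and 134 CPM, with Nes and Tubb3 lower and Sox1 higher (2.25). The calls of Nes and Tubb3 were lost without DMSO replicate 2 and without 72 h replicate 2. The part of rare other cells in these increases was not tested.

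Hox genes, which set position along the body axis, were higher in 10 of 16 tested cases and lower in 0, with a median of 1.97, and 7 of the 10 had at most 10 counts in both DMSO libraries. Hoxb9 rose from 2.96 and 3.30 CPM to 25.5 and 25.4 CPM. Matrix genes had 10 higher and 4 lower of 32 (median 0.32), or 13 and 2 with library size alone (median 0.56). Among these 10 higher genes, 3 had at most 10 counts in both DMSO libraries. Fbn1 rose by 3.44, while Nid1, Lamb2 and Col18a1 fell by 0.96, 0.89 and 0.74, the last not called without either DMSO library or without 72 h replicate 2. Fn1, the most abundant, was at 1943 and 2014 CPM in DMSO and 1880 and 1825 CPM at 72 h. Of 20 neural and neuronal genes, 7 were higher and 5 lower (median 0.64), or 8 and 1 with library size alone (median 0.88). Of the 7, 3 had at most 10 counts in both DMSO libraries. Prph, Cdh4 and Nefm were among the higher genes and Elavl4 (-2.08) among the lower ones.

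Signalling genes went both ways. Of 28 genes of the TGF-beta, Nodal and BMP pathways, 9 were lower and 7 higher (median 0.16). The Nodal inhibitors Lefty2 and Lefty1 fell, Lefty2 from 907 and 926 CPM to 167 and 149 CPM and Lefty1 by 2.06, whereas Tgfbi rose by 4.24 and the ligand Tgfb2 by 3.71. Of 23 Wnt targets and inhibitors, 6 were lower and 4 higher (median -0.17, and 0.08 with library size alone), and of 26 immediate early genes of the MAPK pathway, 3 were lower and 6 higher (median 0.51), or 1 and 8 with library size alone (median 0.76). Jun, a subunit of AP-1 with a promoter peak, was at 7.02 and 5.95 CPM in DMSO and 23.2 and 23.6 CPM at 72 h. Of 24 interferon response genes, 7 were lower and 6 higher (median -0.43), or 6 and 8 with library size alone (median -0.18), with Ifi35 at -2.66 and Tap1 at 3.20.

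Values at 24, 48 and 72 h share their DMSO libraries, so they are set side by side, and the test between time points is that of 72 h against 24 h. It called 988 genes lower at 72 h than at 24 h, 6.9% of those tested, and 1115 higher, 7.78%. With library size alone it called 727 lower and 1403 higher, so that lower genes were 34.1% of the calls in place of 47%. Of the genes with a promoter peak, 5.58% were lower at 72 h than at 24 h and 5.44% higher, with a median of -0.03, and of the genes without, 7.56% and 8.59%. Against DMSO, the median log2 change of the genes in the strongest bin of peaks was -0.53, -0.57 and -0.52 in order of time, and that of the weakest bin -0.12, -0.18 and -0.19. The share called lower was 36.3%, 37.9% and 37.9% in the strongest bin and 6.79%, 14.1% and 19.4% in the weakest, and at 24 h and 72 h it was 15.2% and 26.9%, 18.5% and 27.9%, and 21.8% and 30.2% in the bins between them. Cox7c stood at -3.64, -3.75 and -3.35 and Mpi at -5.82, -6.55 and -6.59.

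St3gal2, which had a promoter peak, stood at -2.10, -3.79 and -5.92 against DMSO, with a difference of -3.82 between 72 h and 24 h. In the test of 72 h against 24 h, 11 of the 33 glycolysis genes were lower and 0 higher, with a median of -0.35. Ldha was at -0.94, -1.93 and -2.10, and Dppa3 at -0.88, -3.31 and -4.87. The lysosomal list had 0, 10 and 21 genes higher in order of time, and its median went from 0.00 to 0.64. Hmox1 was at -0.06, 1.28 and 1.90, and Lamp1 at -0.19, 0.49 and 0.99. The integrated stress response list had 10, 17 and 15 genes higher, and Ddit3 stood at 2.32, 3.09 and 2.94. The tests of 72 h against 24 h passed for Ldha (-1.16), Dppa3 (-3.99), Hmox1 (1.96) and Lamp1 (1.18), and not for Ddit3 (0.62), Cox7c (0.29) or Mpi (-0.78).

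A few genes with a promoter peak came back towards the DMSO level. Pomgnt2, which extends sugars on dystroglycan, stood at -5.90, -4.54 and -1.54, a difference of 4.36 between 72 h and 24 h, which was no longer called without 24 h replicate 1 (3.44, adjusted p = 0.0184). It was at 2.86 and 3.44 CPM in DMSO and 1.19 and 1.01 CPM at 72 h, and this decrease passed in none of the fits without 72 h replicate 1, 72 h replicate 2 or DMSO replicate 2. Rpp30, a protein of ribonuclease P, stood at -3.36, -2.46 and -1.25, a difference of 2.11. Peg10 stood at -3.06, -2.31 and -0.90, a difference of 2.16, and Hsph1 at -2.24, -1.57 and -1.30, a difference of 0.94. Jun was at -1.55, -0.14 and 1.86, so that it was below DMSO at 24 h and above it at 72 h.

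**Figure D5:**
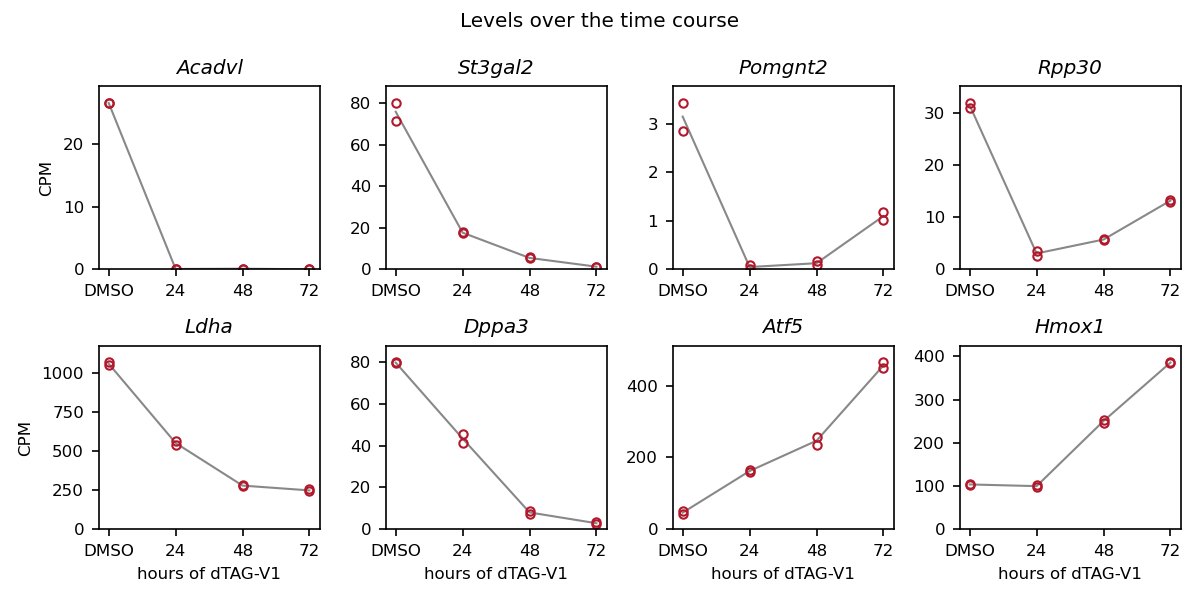
CPM of 8 genes in each library (open circles) and the group mean (grey line) in DMSO, drawn at 0, and after 24, 48 and 72 h of depletion. Acadvl is at or near 0 CPM from 24 h, St3gal2, Ldha and Dppa3 go on falling, Pomgnt2 and Rpp30 are lowest at 24 h, Atf5 is higher at each later time point, and Hmox1 leaves the DMSO level after 24 h (105 and 102 CPM in DMSO, 386 and 386 CPM at 72 h).

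Separate libraries were available to set beside the changes at 72 h, with their own DMSO controls. Nascent RNA was measured by TT-seq, in which RNA made during a short pulse of 4-thiouridine is isolated. Of 17870 genes tested in TT-seq, 2.43% were lower and 0.168% higher after 2 h of dTAG-V1, and 4.09% and 2.02% after 24 h, at an adjusted p under 0.05 and a log2 change above 0.5. Of the 1749 genes lower at 72 h that were tested there, 271 (15.5%) were also lower in nascent RNA after 2 h, which was 68.1% of the nascent calls among the shared genes. For the higher genes it was 16 of 1768 (0.905%), 61.5% of 26 calls. After 24 h the numbers were 433 lower (24.8%) and 200 higher (11.3%).

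The lower genes at 72 h split in nascent RNA by their promoter peaks. Those with a peak had a median nascent log2 change of -0.80 after 2 h, and 44.3% (260 of 587) were called lower. Those without had a median of 0.03, and 0.947% (11 of 1162) were called. After 24 h the shares called lower were 57.8% and 8.09%. In further RNA-seq libraries from 24 h of dTAG-V1, taken as the undifferentiated arm of a retinoic acid experiment, 3.66% of 15915 genes were lower and 2.74% higher. Of the genes lower at 72 h, 24.2% (442 of 1827) were lower there, 60.8% of those with a promoter peak and 6.13% of those without, and of the higher genes 14.3% (272 of 1906) were higher. Opposite calls were made for 6 lower and 12 higher genes. These treatments were shorter than 72 h, so the shares set 2 time points side by side.

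Lower genes were spread unevenly over chromosomes. On chromosome 7, which holds the cluster of Zfp111 and Zfp108, 19.3% of 1137 tested genes were lower and 10.5% higher. On the other autosomes and X, between 7.61% (chromosome 18) and 15.8% (chromosome 11) were lower. Higher genes made up 21.2% on chromosome 18 and 19.8% on chromosome 3.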

How the data were processed

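RNA-seq libraries (polyadenylated RNA, stranded kit, paired-end) were aligned by the authors to mm10 in STAR, with GENCODE vM25 as the gene annotation. The deposited values are raw counts per gene. The strand column counted is not given in the sources used here. The ZFP143 peak list deposited by the authors gives a fold enrichment over input, a ratio from MACS2. TT-seq counts were deposited after counting by strand. Symbols came from GENCODE vM21 (14319 of 14326 genes matched).

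edgeR 4.0.16 (R 4.3.3) fitted the 8 time-course libraries in 4 groups with TMM scaling, leaving 4 residual degrees of freedom. glmTreat tested against a fold of 1.5, with p adjusted after Benjamini and Hochberg over all tested genes and calls under 0.01. TT-seq used the quasi-likelihood test at 0.05 with a log2 change above 0.5. CPM are scaled by TMM. Standard errors are the absolute log2 change divided by the square root of the quasi-likelihood F. Their spread was pooled over libraries and moderated across genes. They do not show how the change of a nearly absent gene moves when a library is left out. Intervals and floors cover counting error only, at 95%. Named genes were Zfp143, the 12 greatest changes each way (mean count of at least 100, no overlap of groups), the 8 largest CPM changes each way, in each of 53 lists up to 4 called members per direction and the most abundant member, the study's examples, viewpoints and markers, and genes near absent in 1 group. Ccdc163 and Zmat5 were added after values had been seen. The members and lists were chosen with earlier results of these data known. In simulated counts for 72 h against DMSO, with 200 of 14326 genes changed, 57.6% of 2-fold, 91% of 4-fold and 94% of 8-fold changes were recovered and 0 unchanged genes called. The simulation changed far fewer genes than were called in the data and drew its spread from the same fit. It therefore cannot show how scaling bears on false calls. Counts of replicates differed by more than sampling noise, so none was a duplicate.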

Additional observations from a re-analysis of the deposited data

Results flagged for a closer look

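The genes below differed between 72 h and 24 h of depletion in the test of that difference itself, with values as log2 of 72 h minus 24 h. Among the 12 genes with the greatest decrease at 72 h these were St3gal2 (-3.82), Lhpp (-2.46) and Gstm3 (-3.91), whose RNA was lower at 72 h than at 24 h, while the other 9 of the 12 did not pass. Among the 12 with the greatest increase, 11 passed and were higher at 72 h: Prph (4.49), Gpnmb (4.32), Cdh4 (3.46), Col4a1 (2.36), Cyp1a1 (4.11), Col4a2 (1.40), Nrip3 (3.16), Timp3 (4.2), B4galnt2 (1.55), Steap1 (2.37) and Nefm (4.57). Trim66 (0.66) did not. These genes were chosen for their value at 72 h, which the difference shares. Nefm stood at -0.24 and Timp3 at 0.17 against DMSO at 24 h.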

How the results depend on the processing

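Counts of calls at 72 h depended on the rule and the scaling. The DESeq2 Wald test gave 1210 lower and 1171 higher genes, and 501 lower and 540 higher at 72 h against 24 h. The quasi-likelihood test at 0.05 and a log2 change of 0.5 gave 3357 and 3521, and 2469 and 2713 against 24 h. Library size alone gave 1190 lower at 72 h. Without 1 library at a time, 1601 to 1672 genes were lower and 1681 to 1842 higher, and 740 to 775 and 817 to 939 against 24 h. Replicate numbers did not pair the libraries (correlations of deviations from -0.017 to 0.065), and the replicate block gave 1850 and 2009 genes, and 979 and 1094 against 24 h. Leaving out the 5 features high in DMSO replicate 1, chosen after seeing the data, gave 1791 and 2094.

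The share of genes not called with a promoter peak was 13.2% with peak centres within 500 bp and 12.7% with peaks of at least 10-fold, which left 4.44% of higher genes. In TT-seq the share of genes lower at 72 h that were called became 20.4% at 2 h and 28.7% at 24 h with library size alone, and 3.32% and 5.60% under the glmTreat rule. For higher genes the glmTreat rule gave 0.283% and 0.566%, and library size alone 9.85% at 24 h. In the libraries of the retinoic acid experiment, library size alone gave 29.7%. Of 360 named genes, 39 calls at 72 h were lost with library size alone, 62 with DESeq2 and 16 to 32 without 1 library, besides the reversal below. CT010467.1 ranged from -2.73 without DMSO replicate 2 to 0.23, a reversal, without DMSO replicate 1. The cause of these shifts was not tested. In the simulation of 72 h against DMSO, 57.6% of 2-fold changes were recovered at these depths and numbers of libraries.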

Other observations

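Further lists were described by their counts at 72 h, when 13% of all tested genes were lower and 14.1% higher. Of 38 genes of SNAPc and RNA polymerase III, which make small RNAs, 8 were lower and 0 higher (median -0.14), with Crcp (-2.54), Rpp40 (-1.62) and Snapc3 (-1.28), all with a promoter peak. Of 19 genes of heme and cobalamin metabolism, 5 were lower and 2 higher (median -0.04), Mmachc and Cpox among the former and Lmbrd1 (1.91), which lets cobalamin out of lysosomes, among the latter. Of 38 genes of mannose and N-glycan synthesis, 4 (10.5%) were lower and 5 (13.2%) higher (median -0.10), shares near those of all genes. The 4 lower genes were Mpi, Gmppa (-3.05), Pomt2 (-2.12) and Pomgnt2, each with a promoter peak. Of 26 selenoproteins and selenium genes, 7 were lower and 4 higher (median -0.41), with Sepsecs (-2.23), which makes selenocysteine, and Gpx4 (-1.22), which removes lipid peroxides, among the lower. Of 19 sialyl and glycan end-capping transferases, 5 were lower and 4 higher (median -0.40), or 4 and 6 with library size alone (median -0.15). With library size alone the medians of the SNAPc, heme and mannose lists were 0.10, 0.21 and 0.14, with 6, 3 and 3 genes lower and 1, 2 and 8 higher.

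The next lists are also to be read beside the 13% of all genes that were lower and the 14.1% higher. In the proteasome list 3 of 43 genes were lower and 1 higher (6.98% and 2.33%), with Nfe2l1 at 0.72. Among tRNA synthetases, 2 of 17 mitochondrial genes were lower and 1 higher. Of 19 cytosolic ones 1 was lower, Lars (-2.08), and 1 higher, Wars (1.29). Cholesterol synthesis had 2 lower and 4 higher of 24 (8.33% and 16.7%). Cohesin and CTCF had 2 lower (13.3%) and 0 higher of 15, with Hdac8 at -3.16. Zfp143 with its cofactors had 1 and 1 of 11, Gabpa at -0.88 and Zfp143 itself. Hcfc1 and Thap11 had log2 changes of -0.34 and -0.16 and were not called. Imprinted genes had 4 lower and 8 higher of 23, retinoic acid response genes 2 and 6 of 18, targets of YAP and TEAD 3 and 7 of 18, genes of actin and focal adhesion 3 and 5 of 42, and germline genes 3 and 3 of 15, with Dazl rising from 23.7 and 21.6 CPM to 109 and 122 CPM. Mesoderm markers had 2 lower and 2 higher of 6, trophectoderm markers 3 and 1 of 11, genes of the 2-cell-like state 1 and 1 of 3, and 2 replication-dependent histone genes were tested, of which Hist1h1a was lower, a call lost without DMSO replicate 1. The medians were -0.33 for the proteasome, 0.02 and 0.01 for the tRNA synthetases, 0.07 for cholesterol synthesis, -0.32 for cohesin and CTCF, -0.16 for Zfp143 and its cofactors, 0.70 for imprinted genes, 0.47 for retinoic acid response genes, 0.07 for YAP and TEAD targets, -0.20 for actin genes, 0.35 for germline genes, 0.91 for mesoderm, -0.18 for trophectoderm and -0.40 for 2-cell-like genes. With library size alone those of the cofactors, actin genes and trophectoderm markers were positive (0.09, 0.05 and 0.06), no proteasome gene was lower, and actin and focal adhesion genes had 1 lower and 8 higher.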
